A study of Mus musculus with 6 samples.

Results

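Inhibitory receptors of myeloid cells and the phosphatases that they recruit were examined in the RPE-choroid, the retinal pigment epithelium (RPE) with the vascular choroid behind it, of mice with subretinal fibrosis (SRF) and of control mice. The set held 10 genes, 8 receptors (Pirb, Lilr4b, Gm49339, Cd300a, Cd300lf, Sirpa, Cd33 and Lair1) and 2 phosphatases (Ptpn6 and Inpp5d), out of 15663 genes with counts. Lilr4b was kept among the receptors although the protein it encodes lacks inhibitory motifs. All 10 were found by their Ensembl identifiers and all 10 passed the filter of more than 50 counts in at least 2 libraries, which left 13454 genes for the tests. Cd300lf passed only through the SRF libraries, since its counts were 16, 33 and 39 in the control libraries and 62, 99 and 69 in the SRF libraries.

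The samples came from male C57BL/6 mice (C57BL/6J in the methods of the study) aged 8 to 10 weeks, with 3 libraries from 3 control mice and 3 libraries from 3 SRF mice, 1 library per mouse. Control mice were healthy and labelled as untreated. SRF mice received 4 laser burns per eye, a second burn on each lesion 10 days later, and their RPE-choroid was taken 20 days after the second laser. Total counts ran from 13667310 to 24356023 per library. The summed level of 8 RPE genes was 40557 to 48525 CPM (counts scaled to the library size) in control and 26656 to 35771 CPM in SRF libraries. Rgr was the largest part of this sum, with means of 25330 and 15691 CPM. The RPE genes differed from one another, with 7 lower and 1 higher in SRF and log2 fold changes from -0.74 (Lrat) to 0.32 (Best1). The summed level of 10 photoreceptor genes was high in control mouse 1 (12530 CPM) and SRF mouse 3 (11964 CPM) against 704 to 1713 CPM in the other 4 libraries, and so did not follow the groups.

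Inhibitory receptors sit on macrophages, dendritic cells, mast cells and other leukocytes beside activating receptors that signal through adaptors such as Tyrobp and Fcer1g. Most carry tyrosine motifs in their cytoplasmic tail that are phosphorylated by Src family kinases when the receptor meets its ligand. The phosphorylated motif recruits SHP-1, a tyrosine phosphatase encoded by Ptpn6, or SHIP-1, an inositol phosphatase encoded by Inpp5d, and these dampen the activating signal. The choroid holds resident macrophages and mast cells, and laser injury brings further myeloid cells to the lesion.

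Windows of 300 bases around the start sites, with 250 bases before and 50 bases from the start, were available from RefSeq (GRCm38.p6) for 8 of the 10 genes. They are shown for 4 receptors whose libraries were higher in SRF than in control without overlap. The capitals mark GAGGAA or its reverse complement TTCCTC, a core sequence bound by the myeloid factor PU.1.
Pirb, chr7:3720333-3720632, minus strand: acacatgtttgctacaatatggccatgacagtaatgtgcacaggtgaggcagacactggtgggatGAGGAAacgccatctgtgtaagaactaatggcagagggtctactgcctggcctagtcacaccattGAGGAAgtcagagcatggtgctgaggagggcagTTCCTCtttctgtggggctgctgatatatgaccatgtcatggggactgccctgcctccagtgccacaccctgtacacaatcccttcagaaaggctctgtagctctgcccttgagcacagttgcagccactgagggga
Cd300a, chr11:114889791-114890090, plus strand: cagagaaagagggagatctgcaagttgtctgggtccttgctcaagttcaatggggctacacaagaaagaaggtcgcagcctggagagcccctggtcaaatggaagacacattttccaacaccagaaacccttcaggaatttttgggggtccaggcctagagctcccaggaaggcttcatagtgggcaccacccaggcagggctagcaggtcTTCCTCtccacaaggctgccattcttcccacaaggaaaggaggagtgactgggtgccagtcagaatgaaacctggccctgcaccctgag
Cd300lf, chr11:115133943-115134242, minus strand: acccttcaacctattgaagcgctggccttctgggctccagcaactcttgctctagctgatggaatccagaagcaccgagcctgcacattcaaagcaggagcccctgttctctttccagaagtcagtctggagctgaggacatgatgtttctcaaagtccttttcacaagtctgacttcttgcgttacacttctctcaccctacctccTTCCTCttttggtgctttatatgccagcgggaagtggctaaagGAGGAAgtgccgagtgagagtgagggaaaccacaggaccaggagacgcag
Lilr4b, chr10:51480362-51480661, plus strand: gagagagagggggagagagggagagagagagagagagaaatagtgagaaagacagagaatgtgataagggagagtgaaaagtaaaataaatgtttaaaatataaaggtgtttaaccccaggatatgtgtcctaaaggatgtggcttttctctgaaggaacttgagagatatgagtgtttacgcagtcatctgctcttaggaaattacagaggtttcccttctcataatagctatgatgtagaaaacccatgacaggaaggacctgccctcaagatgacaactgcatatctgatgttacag
The motif was found on either strand in 6 of the 8 windows (Pirb, Cd300a, Cd300lf, Cd33, Lair1 and Inpp5d), against 28.3% of 32851 RefSeq windows of the same length. Pirb held 3 matches, Cd300lf and Inpp5d held 2 each, and the windows of Lilr4b and Ptpn6 held none. A match is a description of the letters in the window and was not tested as a binding site.

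All 10 genes had higher mean levels in SRF than in control RPE-choroid, by 1.20-fold to 3.85-fold on TMM-normalized CPM. Levels of the groups did not overlap for 8 of the 10 genes, against 6.71% of all tested genes, and for 7 of 9 without Cd300lf, whose low control counts made it pass the filter through the SRF libraries. edgeR's quasi-likelihood test called 0 of the 10 at an adjusted p under 0.05 with a log2 fold change of at least 0.5, as it did for 0% of all tested genes in this direction, while 8 of the 10 had an unadjusted p under 0.05, against 4.16% of all tested genes, and 7 of 9 did without Cd300lf. DESeq2, with the same thresholds, called 4 of the 10 higher (Pirb, Lilr4b, Gm49339 and Cd300a), against 0.803% of all tested genes. The median log2 fold change was 0.65 over the 10 genes, 0.55 without Cd300lf and 0.00125 over all tested genes. In bulk tissue, more cells of a type and more RNA per cell cannot be told apart.

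The DESeq2 calls depended on single libraries. Without control mouse 1 it called 1 of the 10 genes and 1.08% of all tested genes higher, without control mouse 2 it called 1 and 0.528%, and without control mouse 3 it called 2 and 0.996%. Without SRF mouse 1 it called 4 and 0.721%, without SRF mouse 2 it called 0 and 0.349%, and without SRF mouse 3 it called 2 and 1.7%. The share of all genes was thus lowest where none of the 10 was called, and highest without SRF mouse 3, where 2 were called. These refits were chosen after the data had been seen. SRF mouse 1 was the lowest SRF library for 8 of the 10 genes, and SRF mouse 3 was the lowest for Cd300a and Inpp5d.

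**Figure D1:**
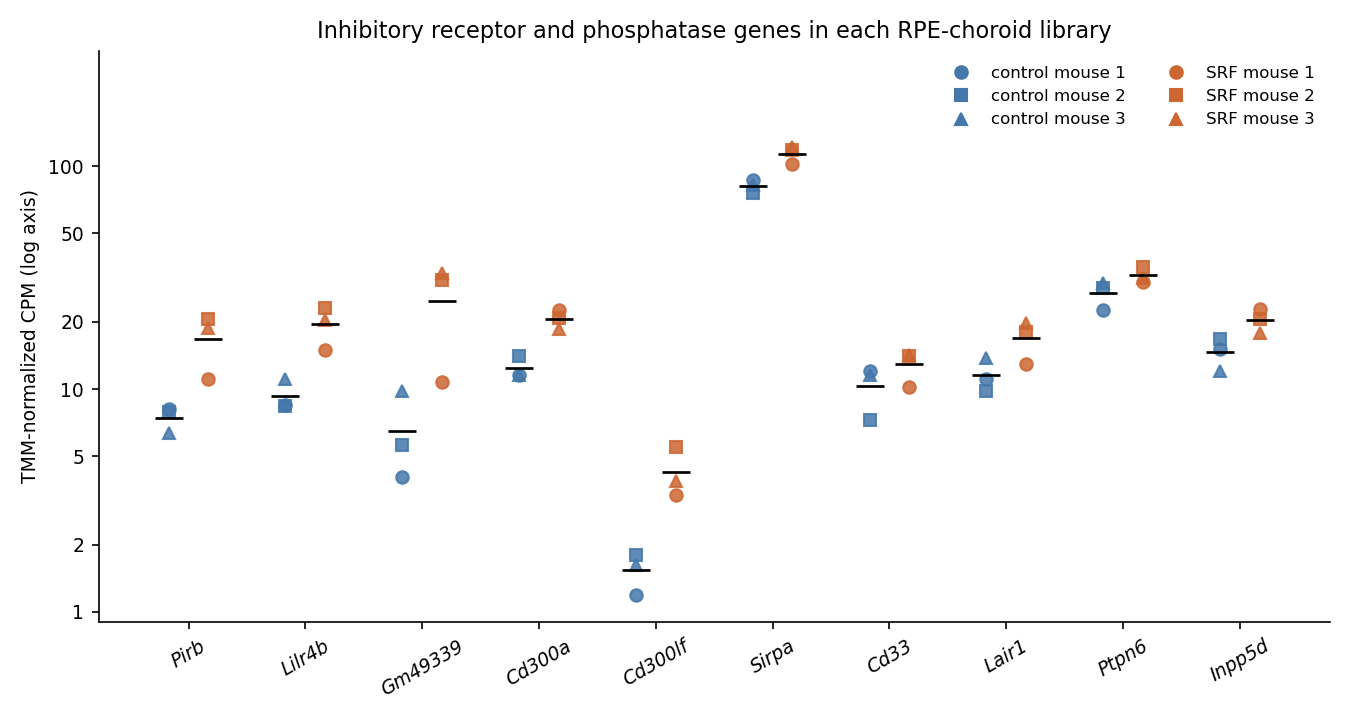
TMM-normalized CPM (log axis) of the 10 genes in each of 3 control libraries (blue) and 3 SRF libraries (orange), with marker shapes for the mouse number and black lines for the group means. The orange points sit above all blue points for 8 of the 10 genes, and the groups overlap for Cd33 and Lair1.

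Among the paired immunoglobulin-like receptors, Pirb, which binds MHC class I molecules, lies on chromosome 7 (GRCm38, 3711409 to 3720391, minus strand). Its level was 8.11, 7.87 and 6.34 CPM in control mice 1 to 3 and 11.1, 20.7 and 18.8 CPM in SRF mice 1 to 3. Every SRF library was above every control library, and SRF mouse 1 was well below the other SRF mice. Control libraries averaged 7.44 ± 0.96 CPM (SD, n = 3), and the average over SRF libraries was 16.8 ± 5.07 CPM (SD, n = 3). The log2 fold change was 1.18 with a standard error of 0.27, and the adjusted p was 0.34 by edgeR and 0.0182 by DESeq2.

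Pirb has near-identical relatives, the activating Pira genes, so the counts given to it are uncertain. Of the 100-base stretches of its annotated transcripts, 20.8% also occur in transcripts of other genes, among them Gm14548, Pira2, Gm15922 and Lilra6, which are in the tables. With Pira2 added to Pirb in each library, the level was 8.71, 9.71 and 8.59 CPM in control and 15.8, 27.3 and 23.0 CPM in SRF libraries. The sum was higher in SRF by a log2 fold change of 1.29 with a standard error of 0.22, with an adjusted p of 0.222 by edgeR and 0.00062 by DESeq2. With all 4 of those relatives added, a sum chosen after the data had been seen, the log2 fold change was 1.25 with a standard error of 0.21. The direction was therefore the same for Pirb alone and for both sums.

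Lilr4b and Gm49339 belong to the leukocyte immunoglobulin-like receptor B4 locus on chromosome 10. The inhibitory receptor of this locus, gp49B, is encoded by the neighbouring Lilrb4a, whereas Lilr4b encodes gp49A, a close relative with a short tail that lacks inhibitory motifs. Lilr4b (GRCm38, 51480632 to 51486703, plus strand) measured 8.49, 8.35 and 11.1 CPM in control and 15.0, 23.0 and 20.5 CPM in SRF libraries. The SRF libraries were all above the control libraries. SRF exceeded control by a log2 fold change of 1.06, with a standard error of 0.22, and the adjusted p was 0.298 by edgeR and 0.0124 by DESeq2.

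Gm49339 (51480612 to 51496613, plus strand) had the largest fold change of the 10 genes. It measured 4.02, 5.59 and 9.80 CPM in control mice 1 to 3 and 10.7, 30.7 and 33.2 CPM in SRF mice 1 to 3. SRF mouse 1 was only just above control mouse 3, and SRF mice 2 and 3 were close to each other. The log2 fold change was 1.93 with a standard error of 0.50, and the adjusted p was 0.412 by edgeR and 0.00825 by DESeq2. With single libraries left out, the value lay between 1.67 and 2.37.

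The gene model of Gm49339 spans both Lilr4b and its neighbour Lilrb4a (51490956 to 51496611) on the same strand. It shares 122 exonic bases with Lilr4b and 1846 exonic bases, 92.8% of its own, with Lilrb4a, and 94.1% of its 100-base stretches also occur in transcripts of other genes. The division of counts between Gm49339 and Lilrb4a is therefore uncertain. Lilrb4a measured 11.1, 13.0 and 14.7 CPM in control and 22.0, 25.3 and 15.3 CPM in SRF libraries, with a log2 fold change of 0.69, a standard error of 0.22 and an adjusted p of 0.539 by edgeR. Its levels in SRF mouse 3 and control mouse 3 were close, whereas Gm49339 was highest in SRF mouse 3.

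Of the counts given to Gm49339 and Lilrb4a together, Gm49339 took 26.6%, 30.1% and 40.0% in control mice 1 to 3 and 32.8%, 54.8% and 68.5% in SRF mice 1 to 3. The groups overlapped, and the exact two-sided permutation test gave p = 0.2, where 0.1 is the smallest that 3 against 3 libraries can give. Summed over Lilr4b, Gm49339 and Lilrb4a, the locus measured 23.6, 26.9 and 35.6 CPM in control and 47.6, 79.1 and 69.0 CPM in SRF libraries. The sum was higher in every SRF library, with a log2 fold change of 1.18, a standard error of 0.24 and an adjusted p of 0.276 by edgeR and 0.00124 by DESeq2. With Gm49339 and Lilrb4a alone added, also chosen after the data had been seen, the log2 fold change was 1.23 with a standard error of 0.25. The size of the difference at the locus was thus nearer to that of Lilr4b than to that of Gm49339.

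**Figure D2:**
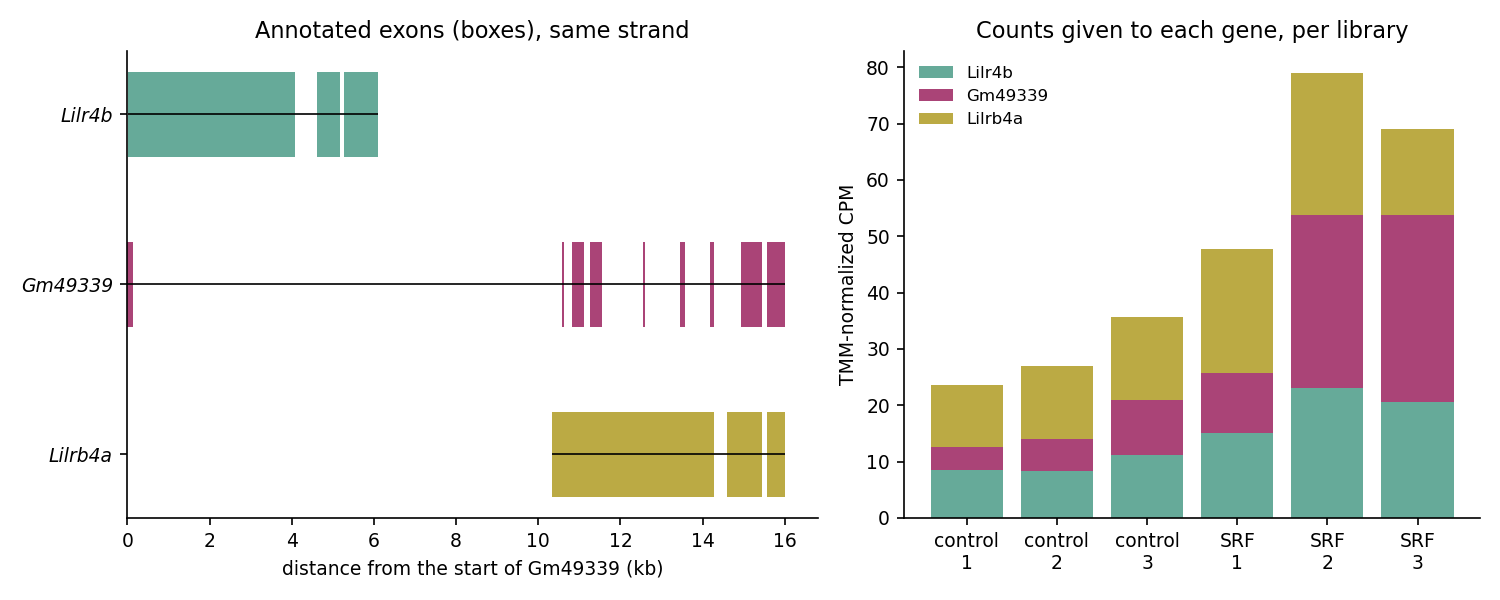
Left, annotated exons of Lilr4b, Gm49339 and Lilrb4a on the same strand by distance from the start of Gm49339 in kb. Right, stacked TMM-normalized CPM given to each gene in the 6 libraries, with totals from 23.6 to 35.6 in control and 47.6 to 79.1 in SRF libraries and the Gm49339 segment widest in SRF mice 2 and 3.

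Cd300a and Cd300lf, receptors for phospholipids exposed on dying cells, lie on chromosome 11. Cd300a (114890041 to 114904654, plus strand) measured 11.5, 14.1 and 11.5 CPM in control and 22.6, 20.9 and 18.5 CPM in SRF libraries. The groups did not overlap and the spread was small in each. edgeR gave a log2 fold change of 0.74 with a standard error of 0.16, and the adjusted p was 0.303 by edgeR and 0.0382 by DESeq2.

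Cd300lf (115116214 to 115133992, minus strand) measured 1.19, 1.79 and 1.63 CPM in control and 3.35, 5.51 and 3.86 CPM in SRF libraries. These are the lowest levels of the set, and its control counts were between 16 and 39. The log2 fold change was 1.46 with a standard error of 0.36, and the adjusted p was 0.402 by edgeR and 0.0807 by DESeq2. Cd300lf lies within the span of Rab37 on the opposite strand and shares 0 exonic bases with it. The strand setting of the counting was not given in the sources used here.

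Sirpa, the receptor for CD47, lies on chromosome 2 (129592835 to 129632228, plus strand). It measured 86.4, 76.1 and 82.0 CPM in control and 102, 118 and 122 CPM in SRF libraries. All SRF libraries were above the control libraries, with a small spread relative to the level. SRF exceeded control by a log2 fold change of 0.48, with a standard error of 0.12, and the adjusted p was 0.383 by edgeR and 0.0435 by DESeq2, with the fold change under the minimum of 0.5. Sirpa is also expressed outside the myeloid lineage, in neurons among others.

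Cd33, a sialic acid binding lectin, lies on chromosome 7 (43524216 to 43544428, minus strand). It measured 12.1, 7.27 and 11.6 CPM in control and 10.2, 14.1 and 14.2 CPM in SRF libraries. The groups overlapped, since SRF mouse 1 was below control mice 1 and 3. edgeR gave a log2 fold change of 0.32 with a standard error of 0.26 and an adjusted p of 0.939 by edgeR.

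Lair1, a receptor for collagens and for C1q, lies on chromosome 7 (4003402 to 4063204, minus strand). It measured 11.1, 9.82 and 13.8 CPM in control and 13.0, 18.1 and 19.8 CPM in SRF libraries. SRF mouse 1 was below control mouse 3. SRF exceeded control by a log2 fold change of 0.55, with a standard error of 0.22 and an adjusted p of 0.676 by edgeR.

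The 2 phosphatases are effectors of receptors that carry inhibitory motifs. Ptpn6 on chromosome 6 (124720707 to 124738714, minus strand) measured 22.6, 28.4 and 29.9 CPM in control and 30.3, 35.2 and 31.5 CPM in SRF libraries, with SRF mouse 1 just above control mouse 3. Its log2 fold change was 0.26 with a standard error of 0.14 and an adjusted p of 0.836 by edgeR. An antisense gene, Gm20531, overlaps 195 of its exonic bases. Inpp5d on chromosome 1 (87620312 to 87720507, plus strand) measured 15.1, 16.7 and 12.0 CPM in control and 22.8, 20.6 and 17.8 CPM in SRF libraries. The groups did not overlap, and the log2 fold change was 0.48 with a standard error of 0.18 and an adjusted p of 0.619 by edgeR. The median log2 fold change was 0.90 over the 8 receptors, 0.74 over 7 receptors without Cd300lf and 0.37 over the 2 phosphatases, and this difference was not tested. Lilr4b, whose product lacks inhibitory motifs, is counted among these receptors.

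**Figure D3:**
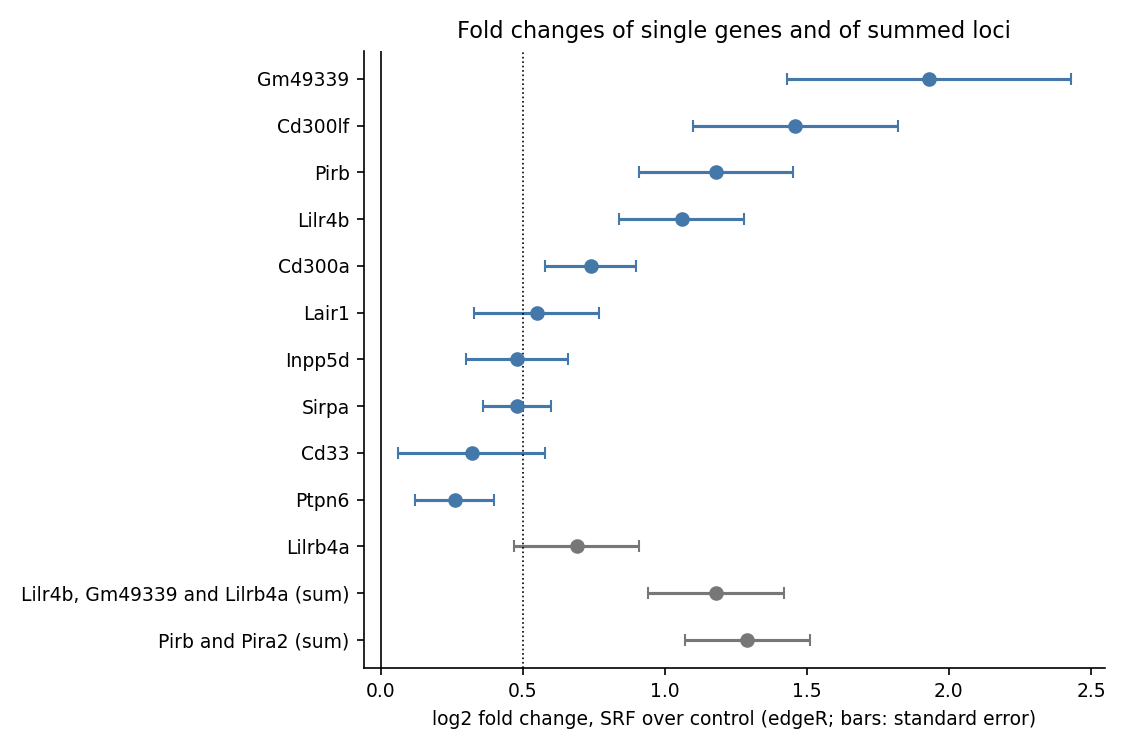
Log2 fold changes of SRF over control from edgeR (points) with standard errors (bars) for the 10 genes in blue and for Lilrb4a and the summed loci in grey. The points run from 0.26 (Ptpn6) to 1.93 (Gm49339), and the dotted line marks the minimum of 0.5.

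Levels per length were compared as FPKM. In control libraries the order was Sirpa (23.2 ± 1.47, SD, n = 3), Ptpn6 (11.9 ± 1.71), Lilr4b (6.78 ± 0.633), Lair1 (4.55 ± 1.15), Gm49339 (3.74 ± 2.10), Inpp5d (3.01 ± 0.503), Cd300a (2.61 ± 0.294), Cd33 (2.57 ± 0.752), Pirb (1.90 ± 0.240) and Cd300lf (0.820 ± 0.174). Neighbours from Lair1 to Pirb overlapped. Of the 9 neighbouring pairs, 4 did not overlap, each with an exact permutation p of 0.1 and an adjusted p of 0.225. Gm49339 had rank 5 in control and rank 2 in SRF libraries (16.2 ± 8.51 FPKM), after Sirpa (33.7 ± 3.86 FPKM).

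Most macrophage markers were higher in SRF libraries as well, but not all. The summed level of 14 markers was 1329 to 1684 CPM in control and 3176 to 4729 CPM in SRF libraries, of which Lyz2 (915 ± 149 and 2574 ± 646 CPM, SD, n = 3) and Ctss (180 ± 9.82 and 552 ± 117 CPM) made up most. The log2 fold change was -0.03 for Csf1r, 0.03 for Itgam and 0.30 for Mrc1, general markers chosen here after their values had been seen. Of the 14, 8 had an unadjusted p under 0.05 by edgeR and were higher, 5 were called higher by DESeq2 and 0 were called by edgeR, with a median log2 fold change of 0.80. Mean log2 CPM of the markers was 0.71 higher in SRF than in control libraries.

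Relative to the mean log2 CPM of these markers, the median difference over the 10 genes was -0.06, and 5 of the 10 were lower in SRF. With Csf1r, Adgre1 and Aif1 as the only reference genes the median was 0.22, so its sign depended on the reference chosen. Cd300lf was at -4.83, -4.46 and -4.65 in control and -4.09, -3.69 and -3.92 in SRF libraries, which is given as a description since it passed the count filter through the SRF libraries alone. Ptpn6 was at -0.59, -0.47 and -0.45 in control and -0.91, -1.01 and -0.89 in SRF libraries. The groups did not overlap for Ptpn6, which was lower relative to the markers in SRF, with an exact permutation p of 0.1, the smallest possible, and an adjusted p of 0.375 over 10 tests. The difference was 1.17 for Gm49339, 0.43 for Pirb and 0.35 for Lilr4b with overlapping groups. The part of macrophage content in the levels of the receptors was not tested.

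**Figure D4:**
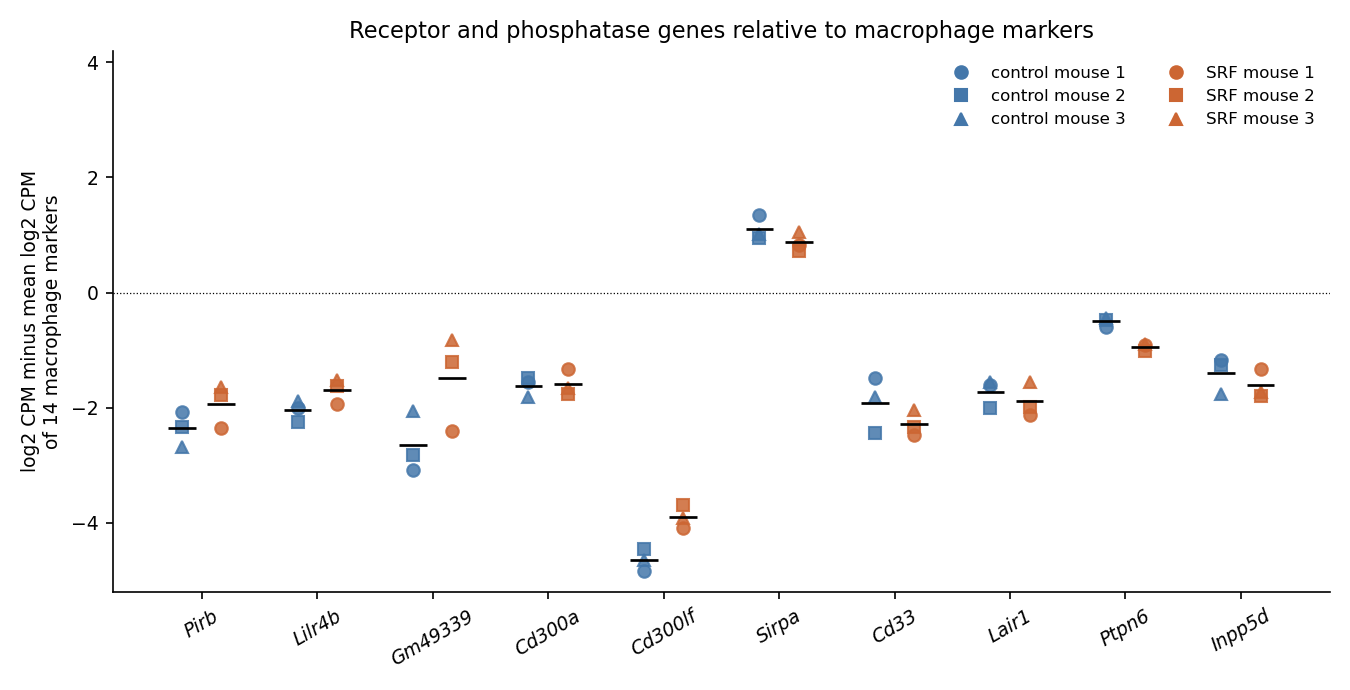
Log2 CPM of each gene minus the mean log2 CPM of 14 macrophage markers in each library, with group means as black lines. The groups are apart for Ptpn6, which is lower in SRF, and for Cd300lf, which passed the count filter through the SRF libraries alone, and they overlap for the other genes.

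Summed levels of other leukocyte markers also lay apart between the groups. Summed CPM was 43.9 to 52.8 in control and 65.2 to 72.4 in SRF libraries for 6 mast cell genes, 14.4 to 21.9 and 34.8 to 38.4 for 5 B cell genes, 6.70 to 10.8 and 11.9 to 12.5 for 5 neutrophil genes, and 32.7 to 38.0 and 39.5 to 46.5 for 6 dendritic cell genes. For 8 T and NK cell genes it was 17.7 to 19.2 in control and 11.1 to 14.3 in SRF libraries. Within these lists the genes differed from one another. Igkc had a log2 fold change of 1.37 and Cd79b 0.31 among the B cell genes, and Itgax had 1.27 against 0.16 for Zbtb46 and 0.17 for Cd209a among the dendritic cell genes. Tpsb2, Cma1 and Cpa3 had 0.94 to 1.32 among the mast cell genes, where Kit had 0.10 and Hdc -0.66. Mcpt4 had 1.40, but it passed the count filter through SRF libraries alone. It measured 1.19, 2.12 and 1.79 CPM in control and 6, 5.12 and 2.41 CPM in SRF libraries. Among the T and NK cell genes Nkg7 had -0.99 and Cd4 0.35. Of the neutrophil genes only 2 were tested, Csf3r (0.90) and Cxcr2 (0.42), and the groups overlapped for both. Their levels were low, with means of 3.06 and 5.73 CPM for Csf3r and 1.92 and 2.61 CPM for Cxcr2 in control and SRF libraries. Ly6g, Mpo and Ngp were not among the listed genes. Few genes were tested in other lists too, with 2 of 5 B cell genes, 3 of 6 dendritic cell genes and 2 of 8 T and NK cell genes. The part of these cells in the levels of the receptors was not tested.

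Of 16 other inhibitory receptors, 14 were tested and 5 were higher at an unadjusted p under 0.05, with 0 lower and a median log2 fold change of 0.56. Cd22, a B cell sialic acid binding lectin, measured 1.56, 1.63 and 1.75 CPM in control and 4.11, 5.35 and 4.65 CPM in SRF libraries. Its adjusted p was 0.272 by edgeR and 0.0128 by DESeq2. Like Cd300lf, Cd22 passed the count filter through the SRF libraries alone, so these values are given as a description. Fcgr2b, the inhibitory receptor for IgG, had a log2 fold change of 0.66, Vsir one of 0.57 and Clec12a one of 0.55.

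Of 30 activating receptors and adaptors, 13 were tested, 9 were higher at an unadjusted p under 0.05 and 0 were lower, with a median of 0.76. Of all tested genes, 4.16% were higher at that p. Pira2 is among the 9 and had the largest log2 fold change of the list (1.71). Its control levels were only 0.596, 1.84 and 2.25 CPM, and the control libraries alone would not have passed it through the count filter. Clec7a, the receptor for beta-glucans, measured 11.1, 12.3 and 12.3 CPM in control and 26.8, 38.5 and 32.7 CPM in SRF libraries, and its adjusted p was 0.142 by edgeR and 4.44e-08 by DESeq2. Trem2, a lipid receptor, had a log2 fold change of 1.13, and the adaptors Tyrobp and Fcer1g had 0.80 and 0.76.

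Of 18 genes for ligands and matrix, 6 were higher at an unadjusted p under 0.05 and 0 were lower, with a median of 0.44. Of all tested genes, 4.16% were higher at that p. The C1q chains, ligands of Lair1, had log2 fold changes of 0.90 (C1qb), 0.81 (C1qc) and 0.72 (C1qa), and Thbs1, which binds CD47, had 0.99. The ligands did not all go this way, with 14 of the 18 higher and 4 lower by the sign of the fold change. Cd47 itself had 0.02. Among the MHC class I genes, B2m had -0.29, H2-K1 -0.22 and H2-D1 0.04. The lowest value was -0.51 (Omg). Of 8 other inhibitory effectors, 0 had an unadjusted p under 0.05, with a median of 0.31. Of 16 kinases and activating signal genes, 15 were tested, 4 were higher at an unadjusted p under 0.05, among them Lat2 (1.37), Vav1 (1.19) and Lcp2 (0.73), and 0 were lower, with a median of 0.42. edgeR called 0 genes in each of these lists, and DESeq2 called 1 of the other inhibitory receptors, 4 activating genes, 3 ligands, 0 effectors and 2 kinases and activating signal genes. DESeq2 called 0.803% of all tested genes higher. The inhibitory receptor called was Cd22, which passed the count filter through the SRF libraries alone.

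**Figure D5:**
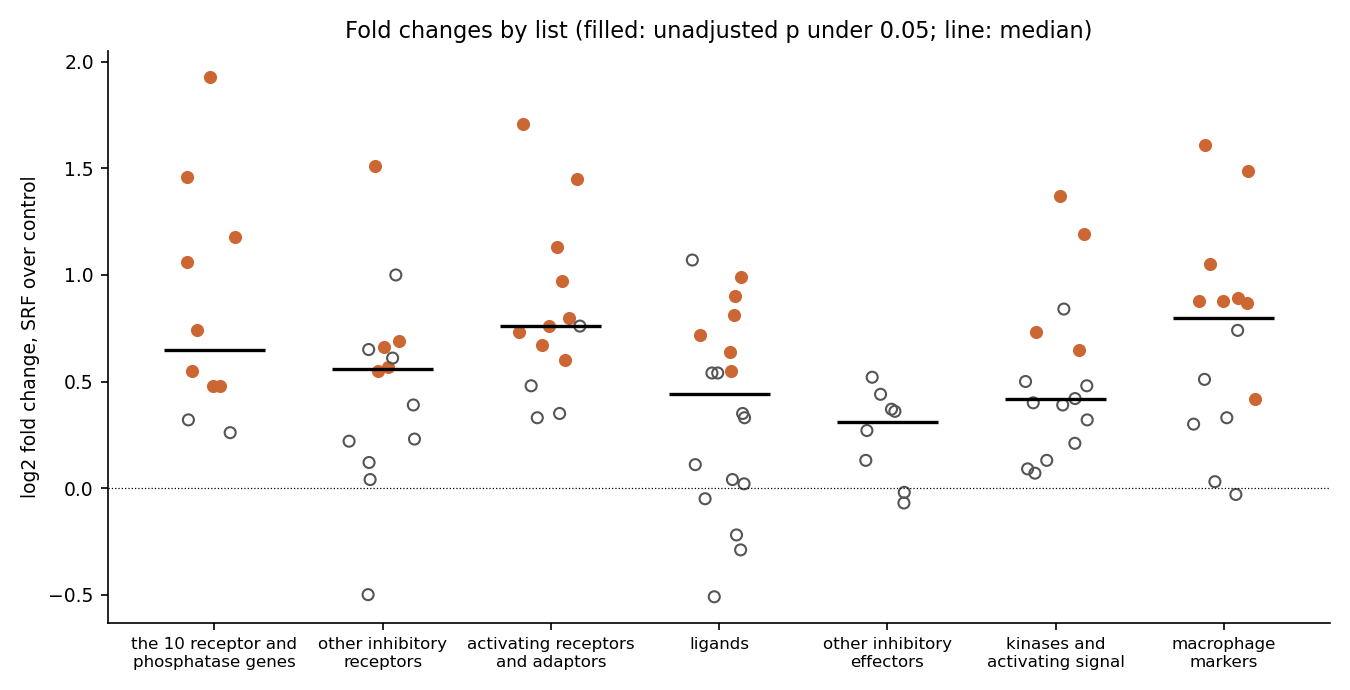
Log2 fold changes of SRF over control for the tested genes of each list, with filled points for unadjusted p under 0.05 by edgeR, open points for the others and a line at the median. Medians run from 0.31 for the other inhibitory effectors to 0.80 for the macrophage markers.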

How the data were processed

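RPE-choroid RNA of 3 control and 3 SRF mice was sequenced, with 1 library per mouse. The authors filtered reads with FASTP 0.18.0 and deposited, per library, StringTie counts per gene and FPKM values. The aligner, the genome build and the strand setting were not given in the sources used here. The genes and lists were chosen with earlier results of these data known, so their shared direction is not independent evidence.

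Identifiers were matched to symbols, exons and positions with the GENCODE M21 annotation (GRCm38), and 4 of 15663 identifiers were not in it. The tests covered genes whose count exceeded 50 in 2 or more libraries and used edgeR 4.0.16 (TMM, quasi-likelihood, legacy form, no covariates, R 4.3.3), with Benjamini-Hochberg adjustment over all 13454 tested genes. DESeq2 1.42.0, the test the authors used, and limma 3.58.1 on log2(FPKM + 0.1) were alternatives. A call needed an adjusted p below 0.05 together with a log2 difference of 0.5 or more. Exact permutation tests were two-sided, over libraries. All 10 genes were named, with their overlapping or near-identical genes, and up to 4 genes with the smallest unadjusted p of each pathway list. A gene that this rule names is not reported here. Of the Pira symbols looked for, Pira2 alone was matched, so the planned sum of Pirb and Pira genes held Pira2. The scripts were tested on simulated data. Total counts of 13667310 to 24356023 per library limit precision for genes with few counts.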

Additional observations from a re-analysis of the deposited data

How the results depend on the processing

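The 10 genes kept their direction under all 17 alternative fits, and 166 of 170 values kept the call that adjusted p and fold change give together, although Sirpa, Inpp5d and Lair1 crossed the fold change minimum of 0.5 in some fits and Sirpa had an adjusted p of 0.0435 by DESeq2. The other 4, Pirb, Lilr4b, Gm49339 and Cd300a, were called by DESeq2, which called 4 of the 10 genes where edgeR called 0. With single libraries left out, DESeq2 called 0 to 4 (1, 1 and 2 without control mice 1 to 3, and 4, 0 and 2 without SRF mice 1 to 3) and edgeR called 0, where DESeq2 called 0.349% to 1.7% of all tested genes higher, and the cause of the difference between the tools was not tested. Over all genes DESeq2 called 153 and edgeR 0, with 560 higher and 383 lower at an unadjusted p under 0.05 by edgeR. The median log2 ratio to macrophage markers was -0.06, 0.22 with Csf1r, Adgre1 and Aif1 as reference and -0.07 to 0.01 with single libraries left out. Leaving out both control mouse 1 and SRF mouse 3 was an alternative chosen after the data had been seen. In that fit edgeR called 0 of the 10 genes and 154 over all. Of the 10, 7 were higher at an unadjusted p under 0.05, against 1263 of 13454 tested genes. Their median log2 fold change was 0.69. With the replicate number as a block, 0 of the 10 were called and their median was 0.64. In this fit 8 were higher at an unadjusted p under 0.05, against 673 of 13454 tested genes. Library deviations correlated at -0.483 for the control and SRF mice numbered 1, 0.473 for those numbered 2 and -0.307 for those numbered 3. These values cannot decide whether the numbers pair the mice, since pairing is a matter of design that the labels do not give. Low counts limit Cd300lf, and the shared exons limit Gm49339 and Lilrb4a.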
